A study of Mus musculus with 6 samples.

Results

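Antioxidant and glutathione genes of brown adipocytes comprised 45 of the 22466 genes with a RefSeq transcript in the table of transcript levels, 12259 of which reached 0.5 RPKM on average over the cultures. RPKM is the usual unit of reads scaled to transcript length and to all mapped reads of a culture. The members were chosen by symbol, as genes whose products remove superoxide or peroxides, make, use or recycle glutathione, reduce protein thiols, bind metal ions or control such genes. Each gene is represented by its RefSeq transcript with the highest mean level. The lowest mean among the members was 1.46 RPKM, so that all 45 members passed the minimum of 0.5 RPKM that was applied before the genotypes were compared.

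Superoxide, a by-product of the respiratory chain, is converted by superoxide dismutases into hydrogen peroxide, which peroxiredoxins, glutathione peroxidases and catalase reduce to water. Peroxiredoxins draw electrons from thioredoxin and thioredoxin reductase. Most glutathione peroxidases and the glutaredoxins use glutathione, a tripeptide that glutathione reductase regenerates with NADPH. The transcription factor NRF2, encoded by Nfe2l2 and kept low by KEAP1, switches on many of these genes. Brown adipocytes are rich in mitochondria, and uncoupling protein 1 (UCP1) dissipates the proton gradient that otherwise favours superoxide formation.

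The cells were primary brown adipocytes, grown from the stromal-vascular fraction of interscapular brown fat of young male mice and differentiated in culture. WT cultures 10, 11 and 12 came from wildtype mice, and Ucp1-KO cultures 13, 14 and 15 from UCP1-KO mice of the same 129SvEvS1 strain. All 6 cultures had received an induction medium with isobutylmethylxanthine, indomethacin, dexamethasone, insulin, T3 and rosiglitazone, followed by insulin, T3 and rosiglitazone alone. The knockout is constitutive and therefore also present in precursor cells, and how many animals contributed to each culture is not given in the sources used here.

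Between 14989606 and 17727652 reads lay behind the 6 columns, as recovered from the RPKM values, and between 17 and 22046 reads behind a member in 1 culture. Ucp1 transcripts measured 1775, 981 and 1157 RPKM in WT cultures 10, 11 and 12 and 307, 409 and 398 RPKM in Ucp1-KO cultures 13, 14 and 15. Every Ucp1-KO culture thus lay below every WT culture, at 28.4% of the WT mean, and the transcript that is left is described in the study as a remnant without function. Of 8 adipocyte markers, 7 were higher in Ucp1-KO cells and 0 had an unadjusted p under 0.05. Their summed RPKM lay between 30940 and 32738 in WT and between 31929 and 34771 in Ucp1-KO cultures, most of it from Fabp4, whose genotype means were 26960 and 27686 RPKM. Cidea, another of them, measured 692 ± 89.9 RPKM in WT cells and 974 ± 371 RPKM in Ucp1-KO cells. Of 7 skeletal muscle markers, 5 (Myod1, Myog, Myh1, Myh3 and Ckm) had means under 0.5 RPKM. In summed RPKM, 7 macrophage markers ranged from 60.2 to 182 in WT and from 42.9 to 825 in Ucp1-KO cultures, the highest in culture 14. The 10 stromal markers ranged from 744 to 1707 in WT and from 631 to 1004 in Ucp1-KO cultures, the highest in culture 11, a sum to which Col1a1 and Col3a1 contributed most. All 9 stromal markers tested had lower fitted values in Ucp1-KO cells (for Ly6a the mean RPKM was higher), 2 of them (Dcn and Lum) with an unadjusted p under 0.05 and an adjusted p of 0.868 in limma, and Dcn, Lum and Pdgfra did not overlap between genotypes. Over all transcripts, 50.4% had lower fitted values, 3.24% were lower with an unadjusted p under 0.05, and 5.15% were lower without overlap, so that the counts of stromal markers stood above the background. The 6 endothelial markers summed to between 2.78 and 33.4 in WT and between 5.59 and 15.7 in Ucp1-KO cultures, again with culture 11 on top.

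Some of the regulatory sequence of these genes is shown first, because NRF2 and the metal sensor MTF1 act on short promoter elements. Windows from 250 bases before to 50 bases after a RefSeq start (GRCm38.p6) were held for 40 of the 45 members, and not for Sod3, Gsr, Prdx6, Gsta4 and Gclc. A gene can have several windows, 52 in all for these members, and which of them belongs to the measured transcript was not determined. For 32 members a window lay at the start that RefSeq gives for the gene, and for 8 (Gclm, Glrx2, Gpx8, Gsta3, Gstt1, Gstz1, Mt1 and Prdx4) all windows lay at other starts. The core of the antioxidant response element, TGACNNNGC on either strand, occurred in 10 of these 40 members (25.0%) and in 13.99% of all 27025 genes with a window. These were Gclm, Gsta3, Gstm5, Mgst1, Mt2, Nfe2l2, Prdx1, Sod1, Srxn1 and Txnrd1. In 7 of them a window with a core lay at the start of the gene. The other windows with a core lay 70 (Gclm), 20 (Gsta3) and 25255 bases (Txnrd1) downstream of it. A core of the metal response element, TGCACNC or TGCGCNC on either strand, occurred in 14 of 40 members (35.0%) and in 28.2% of all genes. The antioxidant core and its surroundings are printed for 5 members, among them the most abundant one, Mgst1, a subunit gene of glutathione synthesis, Gclm, and the metallothionein gene Mt2. Capitals mark the core, and each stretch reads 5′ to 3′ in the direction of the gene. They lie at chr3:122245413-122245442 (Gclm), chr6:138140461-138140490 (Mgst1), chr8:94172529-94172558 (Mt2), chr4:116685456-116685485 (Prdx1) and chr10:82859104-82859133 (Txnrd1), all on the plus strand.
Gclm: gctcccgggcGCACCGTCAactctcacgag
Mgst1: gcggggcttgGCACGGTCAggaggcggggt
Mt2: aaagggggtgTGACTCAGCgcggggggtgg
Prdx1: cagggaaagcGCTGAGTCAtcccccgtagg
Txnrd1: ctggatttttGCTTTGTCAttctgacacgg

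The metallothionein genes are shown with the metal response core in capitals, since they had the widest range over cultures of the members above 5 RPKM. For Mt2, the 250 bases before the RefSeq start of the gene (chr8:94172368-94172617, plus strand) held 3 cores, 2 of them on the strand of the gene. For Mt1, the window lay at a RefSeq start 206 bases downstream of the start that RefSeq gives for the gene. The 250 bases before this window's start held 1 core, which is shown within 30 bases (chr8:94179055-94179084, plus strand). It lies within the RefSeq span of the gene, and whether it lies upstream of the measured transcript was not determined. Including the 50 bases after these starts, the windows held 3 cores in Mt1 and 4 in Mt2. Other transcripts of Mt1 in the GENCODE annotation start 122 and 152 bases downstream of the window's start, and 1 of Mt2 starts 242 bases downstream, so that sequence next to those starts was not searched here. Another Mt2 transcript starts 46 bases downstream, within the window.
Mt1: cggtcccgctgTGCACACtggcgctccagg
Mt2 upstream: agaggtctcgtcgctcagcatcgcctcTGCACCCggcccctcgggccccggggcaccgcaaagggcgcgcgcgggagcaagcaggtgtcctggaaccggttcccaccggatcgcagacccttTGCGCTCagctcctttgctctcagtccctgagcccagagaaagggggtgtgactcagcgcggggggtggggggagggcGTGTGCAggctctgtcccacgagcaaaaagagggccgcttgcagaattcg

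The listed antioxidant and glutathione genes were abundantly transcribed. Because they were chosen with earlier results of these data known, their levels describe this list and not the gene families as a whole. Relatives outside the list included Gpx2, Gpx5, Gpx6, Gsta2 and Mt4 at 0 in every culture and Cat, catalase, at a mean of 189 RPKM. The median member had a mean of 54.7 RPKM over all cultures, compared with 7.43 RPKM for all genes above the minimum, and 43 of 45 members exceeded this median gene. A mean of 100 RPKM or more was reached by 15 members, 26 lay between 10 and 100 RPKM, and 4 (Glrx2, Gstt1, Nqo1 and Gsta3) lay below 10 RPKM. Levels spanned a 764-fold range, from 1116 RPKM for Mgst1 to 1.46 RPKM for Gsta3. Mgst1, Mt2, Mt1 and Gpx3 alone held 48.6% of the summed RPKM of all members. Of all members, 16 ranked among the top 5% of genes.

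**Figure D1:**
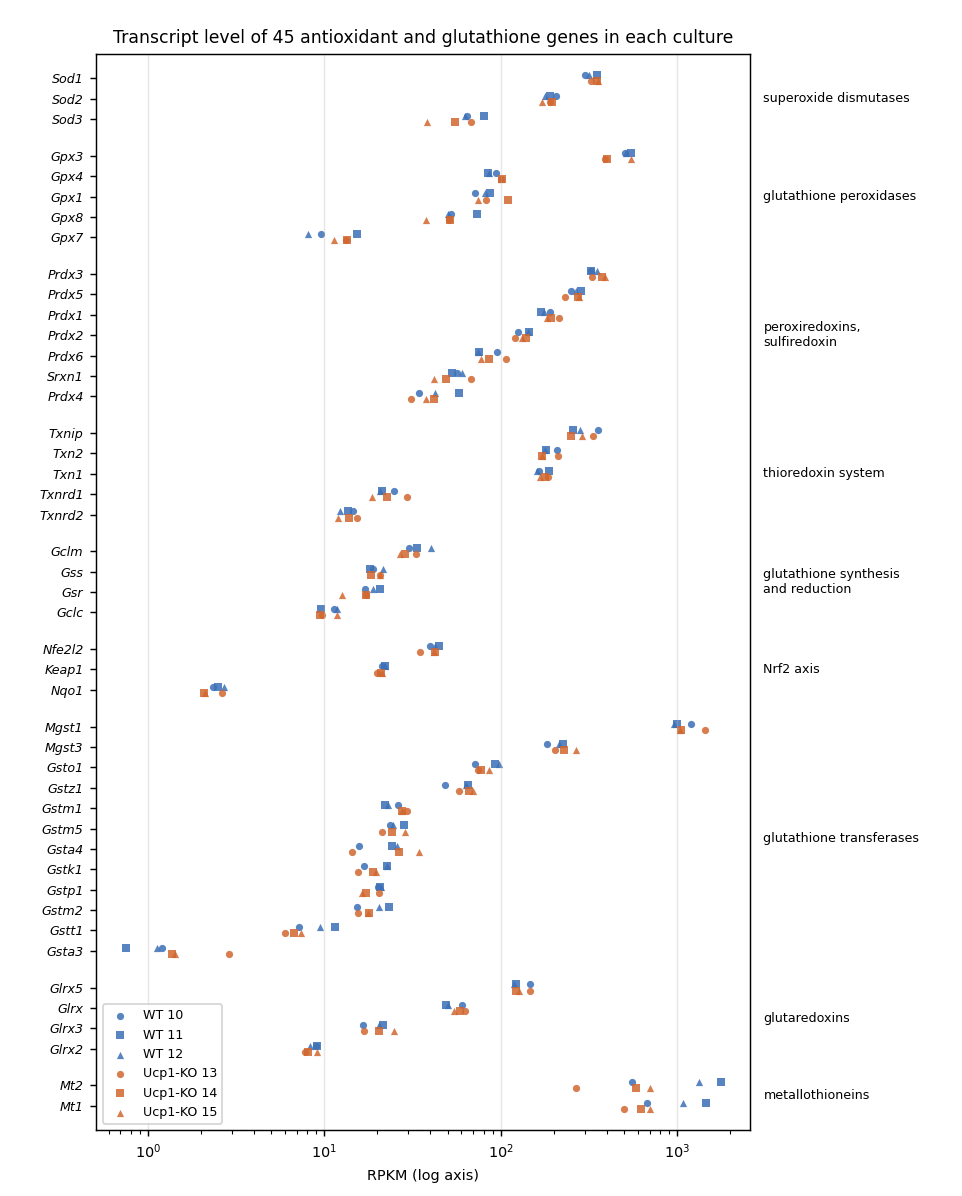
Transcript level in RPKM (log axis) of each of the 45 genes, by class, with 1 point for each of 3 WT (blue) and 3 Ucp1-KO (orange) cultures; symbol shapes only tell cultures apart and pair none of them. Mgst1 is highest at a mean of 1116 RPKM and Gsta3 lowest at 1.46 RPKM, and the points of Mt1 and Mt2 are spread more widely than those of most other genes.

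No antioxidant or glutathione gene passed the test between Ucp1-KO and WT cells, and most differences were small. Of the members, 20 were higher and 25 lower in Ucp1-KO than in WT cultures, and the median log2 fold change was -0.04, compared with -0.0016 over all 16865 transcripts tested. None of the 45 members passed an adjusted p of 0.05 in limma on log2(RPKM + 1), with adjusted p-values between 0.868 and 0.990. This was equally true of the background, in which 0.0% of transcripts passed, Ucp1 included. At an unadjusted p under 0.05 stood 3 members (6.67%), compared with 5.54% of all transcripts. Gstm1 was the 1 member higher in Ucp1-KO cells, where the background was 2.3%, and Mt1 and Gstt1 were lower, where the background was 3.24%. Ranges of the genotypes did not overlap for 3 members (6.67%), compared with 11.2% of all transcripts. These were Gpx4, Gstm1 and Gsta3, all higher in every Ucp1-KO culture, and the background in this direction was 6.04%. The members' shares were thus close to or below those of all transcripts. With limma-voom on the recovered reads, 0 members passed the adjusted threshold and 1, Mt1, had an unadjusted p under 0.05, compared with 5.32% of all transcripts.

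How large a difference these cultures leave possible can be read from the 95% intervals. For 43 of 45 members the interval lay within a 2-fold change in either direction, the exceptions being Mt1 and Mt2, compared with 92.1% of all transcripts. For 34 members (75.6%) it lay within a 1.5-fold change, compared with 71.1% of all transcripts. The median SD between cultures of the same genotype was 0.178 on the log2 scale for members and 0.167 for all transcripts. The log2 fold change of 16 members (35.6%) exceeded their own SD within genotypes, compared with 32.1% of all transcripts.

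**Figure D2:**
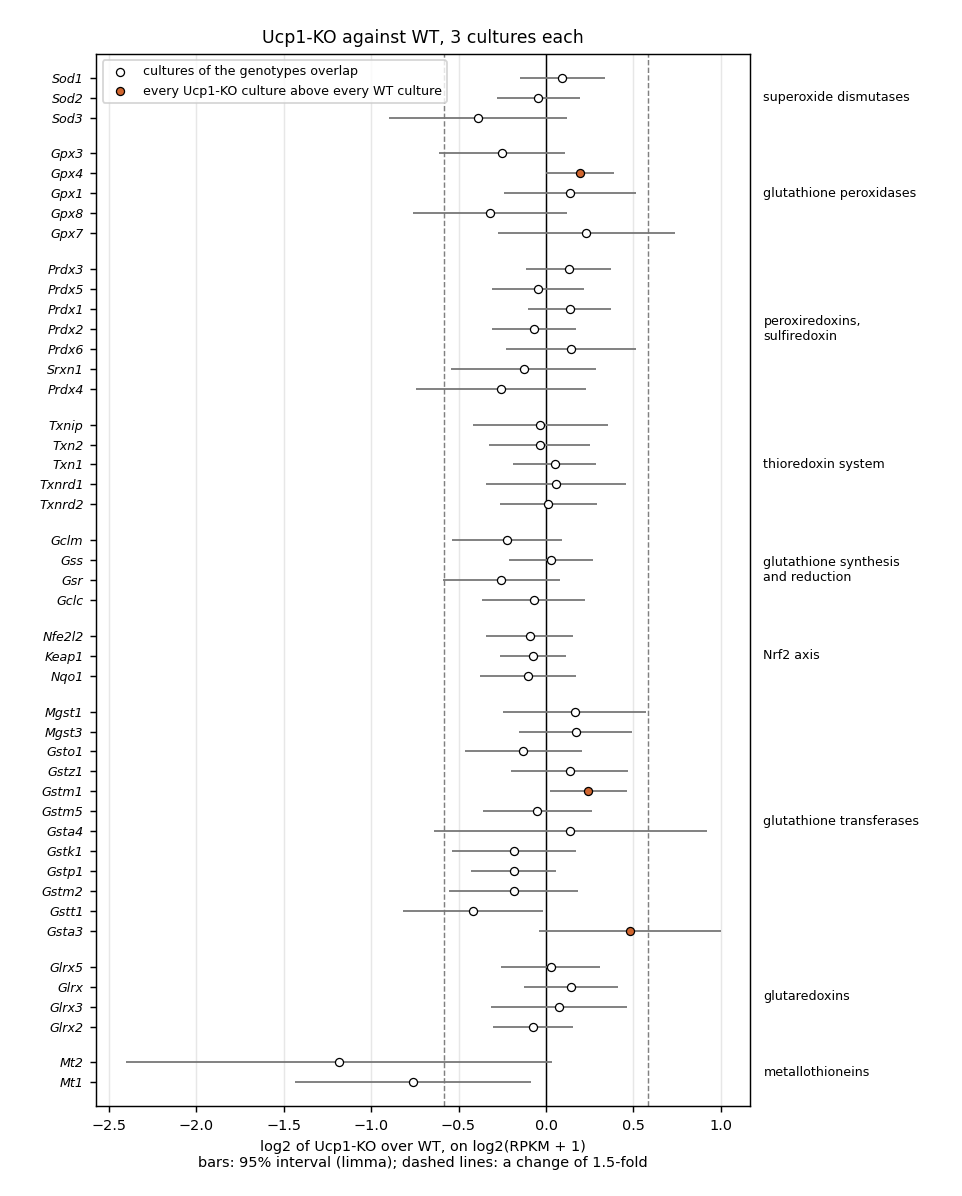
Log2 fold change of Ucp1-KO over WT (points) with the 95% interval from limma (bars) for each member by class, 3 cultures per genotype, on log2(RPKM + 1); dashed lines mark a 1.5-fold change in either direction. Of the intervals, 34 lie between the dashed lines, those of Mt1 and Mt2 reach furthest to lower values in Ucp1-KO cells, and the 3 filled points (Gpx4, Gstm1, Gsta3) are genes whose cultures did not overlap.

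Superoxide dismutases convert superoxide into hydrogen peroxide. Cytosolic Sod1 measured 324 ± 26.5 RPKM in WT cells and 345 ± 16.2 RPKM in Ucp1-KO cells (mean ± SD, n = 3 each, and in this order throughout). Sod2, the manganese enzyme of the mitochondrial matrix, measured 192 ± 13.5 and 186 ± 12.5 RPKM. Its log2 fold change was -0.04 with an interval from -0.28 to 0.19. Sod3, the secreted form, measured 69.4 ± 9.7 and 53.9 ± 15.1 RPKM with a log2 fold change of -0.39 ± 0.21 (SE) and an unadjusted p of 0.113 in limma. Culture 15 was lowest at 38.2 RPKM, and culture 13, at 68.3 RPKM, lay between the WT cultures. Leaving out 1 culture moved the log2 fold change to between -0.58 (without culture 13) and -0.17 (without culture 15). Ccs, which encodes the chaperone that loads copper onto SOD1 and is listed among related genes rather than members, measured 20.3, 19.4 and 18.3 RPKM in WT and 22.1, 24.9 and 23.5 RPKM in Ucp1-KO cultures. All 3 Ucp1-KO cultures lay above the WT cultures (unadjusted p 0.020, adjusted p 0.868, limma).

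Glutathione peroxidases such as GPX1 and GPX4 reduce peroxides at the expense of glutathione. Gpx3, the secreted form, was the most abundant at 525 ± 21.5 and 447 ± 89.6 RPKM. The WT cultures were close together (509, 549 and 516 RPKM), whereas the Ucp1-KO cultures comprised the 2 lowest values and the highest (392, 398 and 550 RPKM). Gpx4, which reduces lipid hydroperoxides within membranes, measured 94.3, 85.2 and 86.2 RPKM in WT and 101, 102 and 101 RPKM in Ucp1-KO cultures. All Ucp1-KO cultures exceeded all WT cultures by a small margin, with a log2 fold change of 0.19 ± 0.08 (SE). The unadjusted p was 0.0524 and the adjusted p 0.868 in limma, and an exact two-sided permutation test gave 0.1, the smallest p that 3 against 3 cultures allow.

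The other 3 members of this class overlapped between the genotypes. Gpx1, the widespread cytosolic form, measured 80.0 ± 7.72 and 89.1 ± 18.6 RPKM, the highest value being the 110 RPKM of culture 14. Gpx7 and Gpx8 serve in the endoplasmic reticulum, where disulfide formation yields hydrogen peroxide. Gpx7 measured 11.03 ± 3.78 and 12.7 ± 1.11 RPKM, and Gpx8 58.9 ± 12.99 and 46.7 ± 7.64 RPKM. Both were highest in WT culture 11, the culture with the highest summed stromal markers.

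Peroxiredoxins reduce hydrogen peroxide through a reactive cysteine. Mitochondrial Prdx3 was the most abundant at 333 ± 14.5 and 365 ± 30.1 RPKM, followed by Prdx5, found in mitochondria and peroxisomes, at 268 ± 17.4 and 261 ± 25.2 RPKM. Cytosolic Prdx1 (178 ± 10.6 and 196 ± 15.5 RPKM) and Prdx2 (137 ± 10.02 and 131 ± 9.53 RPKM) had log2 fold changes of 0.14 and -0.07. Prdx6, which uses glutathione, measured 81.4 ± 11.6 and 90.3 ± 15.8 RPKM. Prdx4 of the endoplasmic reticulum measured 45.03 ± 12.3 and 36.9 ± 5.49 RPKM and was, like Gpx8, highest in WT culture 11 (58.4 RPKM). Srxn1 encodes sulfiredoxin, which repairs overoxidised peroxiredoxins, and measured 56.7 ± 3.67 and 52.8 ± 13.3 RPKM. Its Ucp1-KO cultures included the highest (67.6 RPKM, culture 13) and the lowest value (41.7 RPKM, culture 15). No log2 fold change in this class exceeded 0.26 in size, and all unadjusted p-values in limma were 0.214 or more.

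The thioredoxin system was the class with the smallest differences, with log2 fold changes between -0.04 and 0.06 in its 5 members and intervals within a 1.5-fold change in all 5. Cytosolic Txn1 measured 171 ± 14.8 and 177 ± 9.80 RPKM and mitochondrial Txn2 189 ± 16.1 and 185 ± 23.3 RPKM. The reductases had lower levels per length, with Txnrd1 at 22.3 ± 2.18 and 23.6 ± 5.42 RPKM and Txnrd2, the mitochondrial enzyme, at 13.5 ± 1.18 and 13.7 ± 1.62 RPKM. Txnip, an inhibitor of thioredoxin that also limits glucose uptake, was the most abundant of the class at 298 ± 50.7 and 291 ± 42.8 RPKM. Culture 10 was its highest WT value at 355 RPKM, and culture 13 its highest Ucp1-KO value at 335 RPKM.

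Glutathione is made in 2 steps, by glutamate-cysteine ligase and glutathione synthetase. Gclc, the catalytic subunit of the ligase, measured 11.4, 9.58 and 11.8 RPKM in WT and 9.77, 9.45 and 11.8 RPKM in Ucp1-KO cultures. The genotypes covered nearly the same range, with a log2 fold change of -0.07 ± 0.12 (SE) and an interval from -0.36 to 0.22. Gclm, the modifier subunit, measured 30.3, 33.5 and 40.5 RPKM in WT and 33.0, 28.6 and 27.0 RPKM in Ucp1-KO cultures, with a log2 fold change of -0.22 ± 0.13 (SE). Only culture 13 lay within the WT range, and leaving out 1 culture gave values between -0.31 (without culture 10) and -0.11 (without culture 12). Gss, the synthetase, measured 19.5 ± 1.78 and 19.9 ± 1.37 RPKM, and Gsr, glutathione reductase, 18.8 ± 1.74 and 15.7 ± 2.62 RPKM with the lowest value in culture 15 (12.7 RPKM).

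The regulators of the NRF2 pathway did not separate the genotypes. Nfe2l2 measured 39.6, 44.7 and 42.7 RPKM in WT and 34.9, 42.4 and 41.7 RPKM in Ucp1-KO cultures, with a log2 fold change of -0.09 ± 0.11 (SE). Keap1, whose product marks NRF2 for degradation, measured 21.2, 22.2 and 22.2 RPKM in WT and 19.98, 20.9 and 21.4 RPKM in Ucp1-KO cultures, with a log2 fold change of -0.07 ± 0.08 (SE). It had the narrowest spread of all members, with the highest culture at 1.11 times the lowest. Nqo1, a quinone reductase and common reporter of NRF2 activity, was listed at only 2.51 ± 0.175 and 2.28 ± 0.308 RPKM, from 49 to 74 reads per culture. Transcripts do not report the amount or the location of NRF2 protein. The 10 members with an antioxidant core in their window had a median log2 fold change of 0.0044, with 5 higher and 5 lower, and the 30 members without one had a median of -0.04, with 13 higher and 17 lower.

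Glutathione transferases couple glutathione to electrophiles such as lipid aldehydes. The class was dominated by the membrane-bound Mgst1, the 15th most abundant gene of the cultures, which measured 1196, 995 and 956 RPKM in WT and 1448, 1059 and 1043 RPKM in Ucp1-KO cultures. Its genotypes overlapped, each with 1 culture (10 and 13) well above the other 2, and the log2 fold change was 0.16 ± 0.17 (SE). It was 0.26 without culture 10 and 0.0099 without culture 13. Mgst3 followed at 207 ± 22.0 and 233 ± 31.9 RPKM.

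Gstm1, a cytosolic enzyme of the mu class, measured 26.1, 22.0 and 22.9 RPKM in WT and 29.3, 27.6 and 27.5 RPKM in Ucp1-KO cultures. All Ucp1-KO cultures lay above all WT cultures, with a log2 fold change of 0.24 ± 0.09 (SE), an unadjusted p of 0.0365 and an adjusted p of 0.868 in limma (exact permutation p 0.1). The difference no longer had an unadjusted p under 0.05 when any culture but WT culture 10 was left out. After median-of-ratios scaling its cultures overlapped and the unadjusted p was 0.0678. Gstt1 of the theta class measured 7.23, 11.5 and 9.52 RPKM in WT and 5.97, 6.77 and 7.398 RPKM in Ucp1-KO cultures. Cultures 10 and 15 overlapped, and the log2 fold change was -0.42 ± 0.17 (SE) with an unadjusted p of 0.0425 and an adjusted p of 0.868 in limma (exact permutation p 0.2). The unadjusted p exceeded 0.05 when culture 11, 12, 13 or 14 was left out, and was 0.134 with a log2 fold change of -0.27 without culture 11, its highest value.

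Gsta3 of the alpha class was the least abundant member, with 1.21, 0.752 and 1.12 RPKM in WT and 2.88, 1.37 and 1.43 RPKM in Ucp1-KO cultures. These values rest on 28, 17 and 27 reads in WT and on 63, 32 and 29 reads in Ucp1-KO cultures, so that cultures 10 and 15 differed by a single read. The log2 fold change was 0.48 ± 0.22 (SE, unadjusted p 0.0645, adjusted p 0.868, limma) and lay between 0.25 (without culture 13) and 0.60 (without culture 14) when 1 culture was left out. At this low level it depends on the constant added before the logarithm, and was 0.76 with 0.1 RPKM in place of 1 and 0.80 in limma-voom on reads. Gsta4, which detoxifies the lipid aldehyde 4-hydroxynonenal, varied far more within genotypes than between them. It measured 15.7, 24.3 and 26.03 RPKM in WT and 14.4, 26.6 and 34.7 RPKM in Ucp1-KO cultures, with a log2 fold change of 0.14 ± 0.33 (SE). Its lowest values were those of cultures 10 and 13.

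The remaining transferases overlapped between the genotypes. Gstm2 measured 19.7 ± 4.03 and 17.02 ± 1.27 RPKM, Gstm5 25.6 ± 2.57 and 24.8 ± 3.67 RPKM, and Gstp1 20.6 ± 0.364 and 18.0 ± 2.09 RPKM. Gstk1, a mitochondrial and peroxisomal enzyme, measured 20.7 ± 3.28 and 18.0 ± 2.25 RPKM. Gsto1, which acts as a thiol transferase, measured 87.6 ± 14.5 and 79.4 ± 6.12 RPKM, and Gstz1, an enzyme of tyrosine breakdown, 59.1 ± 9.54 and 64.6 ± 5.78 RPKM. Their log2 fold changes lay between -0.19 and 0.14. Reads were assigned only where they mapped uniquely, so that levels of near-identical copies such as Gstp1 and Gstp2, and of the neighbouring mu class genes, are uncertain.

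Glutaredoxins remove glutathione from protein thiols or carry iron-sulfur clusters. Glrx5, required for iron-sulfur cluster assembly in mitochondria, was the most abundant at 129 ± 14.7 and 132 ± 12.7 RPKM. Cytosolic Glrx measured 53.3 ± 6.49 and 58.9 ± 4.29 RPKM, Glrx3 19.6 ± 2.61 and 20.8 ± 4.05 RPKM, and mitochondrial Glrx2 8.78 ± 0.418 and 8.30 ± 0.666 RPKM. All 4 intervals lay within a 1.5-fold change.

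On log2(RPKM + 1), the largest differences between the genotypes were those of the metallothioneins, small cysteine-rich proteins that bind zinc and copper and scavenge radicals. In the ratio of mean RPKM, with a constant of 0.1 RPKM and in limma-voom, the scarce Gsta3 differed more than Mt1 but less than Mt2. Mt1 measured 678, 1457 and 1083 RPKM in WT and 503, 623 and 703 RPKM in Ucp1-KO cultures. The Ucp1-KO mean was 56.8% of the WT mean, and WT culture 10 lay within the range of the Ucp1-KO cultures. The log2 fold change was -0.76 ± 0.28 (SE) with an interval from -1.43 to -0.08, an unadjusted p of 0.0327 and an adjusted p of 0.868 in limma (exact permutation p 0.2). Mt2 measured 558, 1766 and 1328 RPKM in WT and 267, 587 and 707 RPKM in Ucp1-KO cultures. Culture 10 again lay among the Ucp1-KO cultures, and the Ucp1-KO mean was 42.8% of the WT mean. The log2 fold change was -1.18 ± 0.51 (SE) with an interval from -2.40 to 0.03, an unadjusted p of 0.0547 and an adjusted p of 0.868 in limma (exact permutation p 0.3). The unadjusted p of Mt2 was 0.0459 both after median-of-ratios scaling and when transcripts of all annotations were tested together.

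Both metallothioneins followed the same order within each genotype, lowest in cultures 10 and 13. The wide intervals reflect a 6.61-fold range of Mt2 and a 2.90-fold range of Mt1 over the 6 cultures, compared with 2.41-fold for Gsta4, the next member above 5 RPKM. The ratio of Mt2 to Mt1 was 0.823, 1.21 and 1.23 in WT and 0.531, 0.943 and 1.01 in Ucp1-KO cultures, so that within each genotype it was lowest in the culture with least of both. For Mt1, the unadjusted p exceeded 0.05 when culture 11, 12, 13 or 14 was left out. Without culture 11 its log2 fold change was -0.50 with an unadjusted p of 0.0939, and without culture 10 it was -1.06 with an unadjusted p of 0.00239. For Mt2, leaving out 1 culture gave log2 fold changes between -1.67 (without culture 10) and -0.76 (without culture 13). Among WT cultures, summed stromal markers were likewise highest in culture 11 (1707 RPKM) and lowest in culture 10 (744 RPKM). Among Ucp1-KO cultures, culture 13 had the highest stromal sum (1004 RPKM) and the lowest metallothioneins. The stromal markers also had lower fitted values in Ucp1-KO cells (9 of 9 tested, compared with 50.4% of all transcripts, and 2 with an unadjusted p under 0.05, compared with 3.24%). The part of other cell types in these values was not tested. Mtf1, which encodes the zinc sensor that activates both genes, measured 4.55, 4.81 and 4.52 RPKM in WT and 4.52, 4.84 and 4.55 RPKM in Ucp1-KO cultures, which is nearly the same level in every culture. Slc30a1, a zinc exporter that MTF1 also activates, measured 3.67, 3.73 and 4.15 RPKM in WT and 3.74, 4.05 and 3.41 RPKM in Ucp1-KO cultures. Like the metallothioneins it was lowest in culture 10 among WT cultures, but unlike them it was not lowest in culture 13. Slc39a14, the other metal responsive gene tested, was like the metallothioneins lowest in cultures 10 (5.10 RPKM) and 13 (4.51 RPKM) of their genotypes.

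**Figure D3:**
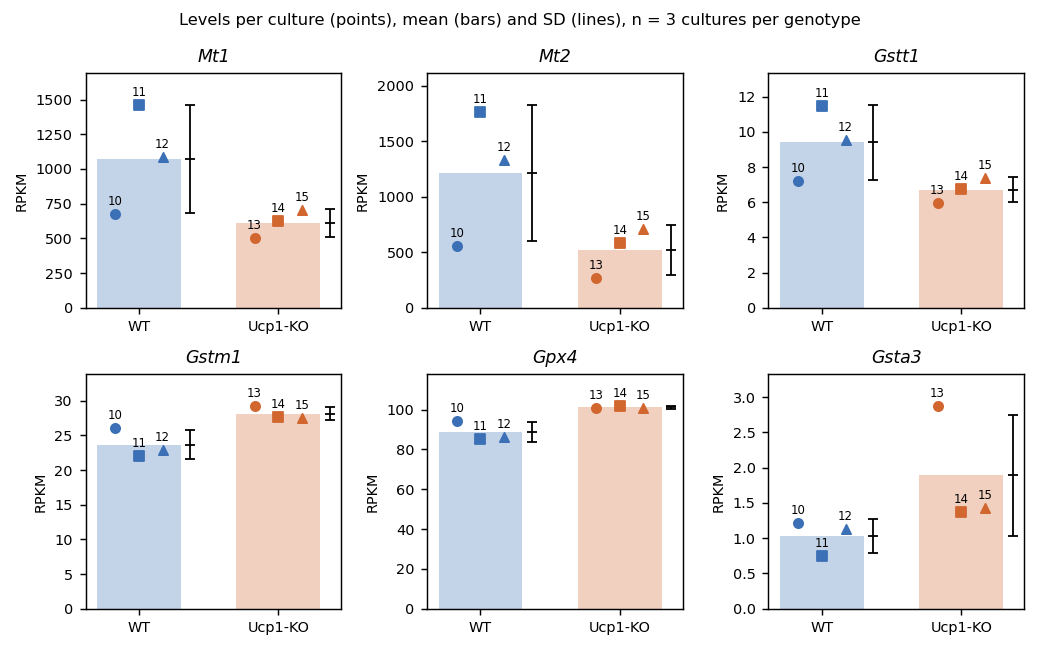
RPKM of the 6 members that had an unadjusted p under 0.05, did not overlap between genotypes or varied most; points are cultures (numbered), bars the mean and lines beside them the SD of 3 cultures, on axes that start at 0. WT culture 10 falls among the Ucp1-KO cultures for Mt1 and Mt2, whereas the Gstm1, Gpx4 and Gsta3 points of Ucp1-KO cells all lie above those of WT cells.

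The metallothioneins accounted for most of the variation in the summed level of the 45 members among WT cultures (SD 965 RPKM with and 126 RPKM without them), but not among Ucp1-KO cultures (198 and 203 RPKM). This sum was 6384, 8314 and 7319 RPKM in WT and 6156, 6201 and 6519 RPKM in Ucp1-KO cultures. Without Mt1 and Mt2, the remaining 43 members added up to 5149, 5091 and 4908 RPKM in WT and 5386, 4991 and 5109 RPKM in Ucp1-KO cultures, and the genotypes overlapped. By class, glutathione transferases added up to 1545 ± 73.4 and 1700 ± 183 RPKM and glutathione peroxidases to 763 ± 41.1 and 697 ± 70.7 RPKM. Superoxide dismutases added up to 585 ± 33.9 and 585 ± 18.4 RPKM, peroxiredoxins with sulfiredoxin to 1100 ± 20.5 and 1133 ± 26.8 RPKM, the thioredoxin system to 694 ± 63.4 and 690 ± 76.5 RPKM, and glutathione synthesis and reduction to 84.1 ± 7.66 and 75.5 ± 4.50 RPKM. Because these are bulk cultures, fewer cells of a type and less RNA per cell cannot be told apart.

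By assigned location, 8 members listed as mitochondrial (Sod2, Prdx3, Prdx5, Txn2, Txnrd2, Glrx2, Glrx5 and Gstk1) had log2 fold changes between -0.18 and 0.13, 3 higher and 5 lower in Ucp1-KO cells. All 8 intervals lay within a 1.5-fold change. The 3 members listed for the endoplasmic reticulum (Prdx4, Gpx7 and Gpx8) had log2 fold changes between -0.32 and 0.23, and the 2 listed as secreted (Sod3 and Gpx3) -0.39 and -0.25. None of these 5 had an interval within a 1.5-fold change. The other 32 members, among them Mgst1, Mgst3 and Gpx4, were assigned to none of these locations, so that the lists may be incomplete. Of these 32, 26 had an interval within a 1.5-fold change.

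WT culture 11 was the highest of all 6 in 14 members (31.1%), compared with 26.8% of all transcripts, and Ucp1-KO culture 13 the lowest in 13 (28.9%), compared with 24.5%, so that both shares were near the background. Cultures 10 and 13 held the same extreme position within their own genotype in 29 of 45 members (64.4%), being both highest in 11 and both lowest in 18. Over all 16865 transcripts the share was 49.4%, with 2612 both highest and 5720 both lowest. In the other 8 pairs of a WT and a Ucp1-KO culture this share lay between 2.22% and 37.8% of the members and between 7.29% and 33.4% of all transcripts. The pair was singled out after its values were seen. Members high in both cultures included Mgst1, Prdx1, Prdx6, Txn2, Txnrd1 and Txnip, and members low in both included Mt1, Mt2, Gsta4, Gstt1, Gstz1 and Mgst3. With both cultures left out, 10 of 45 members had an unadjusted p under 0.05 and 28 did not overlap, compared with 13.6% and 49.4% of all transcripts. The shares of the members were thus the larger ones, with cultures left out that were chosen after their values were seen. The lowest adjusted p of a member was 0.325 (limma).

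**Figure D4:**
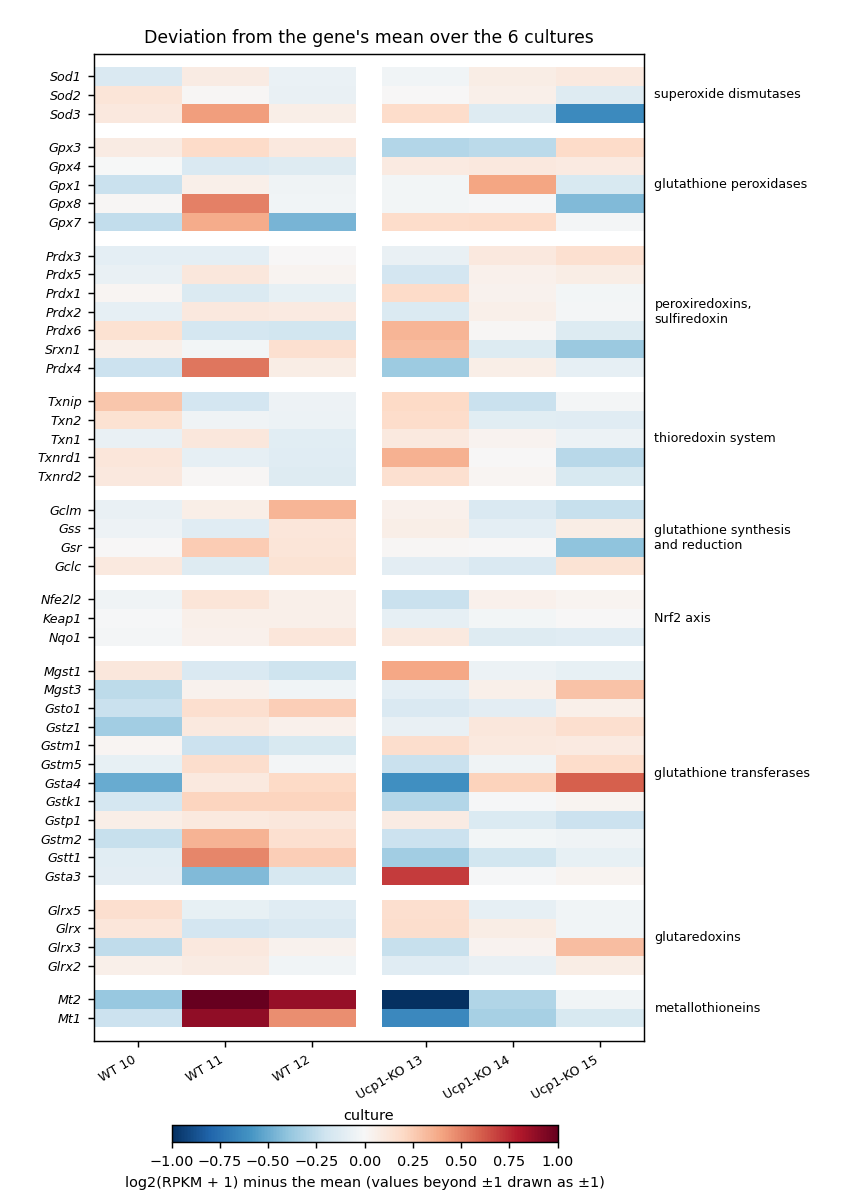
Deviation of each member from its own mean over the 6 cultures, on log2(RPKM + 1), by class (rows) and culture (columns), red above and blue below the mean. Mt1 and Mt2 stand out as high in WT cultures 11 and 12 and below their mean in WT culture 10 and all Ucp1-KO cultures, lowest in culture 13, and many transferases are low in both cultures 10 and 13.

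Genes related to the members were compared in the same way, and 0 of them passed the adjusted threshold in limma. Of 27 other NRF2 targets and cofactors, 24 were tested and 2 (8.33%), G6pdx and Tkt, had an unadjusted p under 0.05, compared with 5.54% of all transcripts. Both encode enzymes of the pentose phosphate pathway, but Pgd (log2 fold change 0.06, unadjusted p 0.839, limma) and Taldo1 (0.18, unadjusted p 0.134, limma) of the same pathway did not pass this limit. G6pdx, which makes NADPH, measured 191, 186 and 192 RPKM in WT and 229, 255 and 205 RPKM in Ucp1-KO cultures, all above WT (unadjusted p 0.0362, adjusted p 0.868, limma). Tkt, transketolase, measured 224, 145 and 151 RPKM in WT and 302, 260 and 202 RPKM in Ucp1-KO cultures, with overlap between cultures 10 and 15 (unadjusted p 0.0346, adjusted p 0.868, limma). Hmox1, the heme oxygenase induced by NRF2 and by heme, measured 371, 760 and 872 RPKM in WT and 205, 456 and 553 RPKM in Ucp1-KO cultures. As for the metallothioneins, cultures 10 and 13 were the lowest of their genotype, and its log2 fold change of -0.75 ± 0.45 (SE) had an adjusted p of 0.876 (limma).

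In the remaining lists, 1 gene of 8 (12.5%), 1 of 16 (6.25%), 1 of 10 and 0 in the other 2 lists had an unadjusted p under 0.05. Of 12 other glutathione transferases 8 were tested, and Gstp2 (5.14, 6.61 and 7.20 RPKM in WT and 3.71, 4.78 and 4.52 RPKM in Ucp1-KO cultures) was lower in all Ucp1-KO cultures (unadjusted p 0.0182, adjusted p 0.868, limma). Over all transcripts, 5.15% were lower without overlap. None of 12 genes of glutathione transport and breakdown had an unadjusted p under 0.05. In Ucp1-KO cells 9 of the 12 were lower, compared with 50.4% of all transcripts, with a median log2 fold change of -0.09. Of 16 further hydroperoxide and repair enzymes only Ccs did, and Cat, catalase, measured 197, 184 and 181 RPKM in WT and 227, 191 and 155 RPKM in Ucp1-KO cultures, with culture 13 above and culture 15 below the WT range. Among 10 producers of superoxide or hydrogen peroxide, Maob, a monoamine oxidase of the outer mitochondrial membrane, measured 5.003, 7.65 and 7.90 RPKM in WT and 3.93, 4.83 and 5.01 RPKM in Ucp1-KO cultures, with cultures 10 and 15 nearly equal (unadjusted p 0.0327, adjusted p 0.868, limma). Subunit genes of the phagocyte NADPH oxidase followed the macrophage markers, with Cybb at 14.7 RPKM in culture 14 and between 1.08 and 3.43 RPKM in the other 5. Of 6 metal responsive genes, 3 were tested and 0 had an unadjusted p under 0.05.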

How the data were processed

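RNA of 6 cultures, 3 per genotype, was sequenced from TruSeq v2 libraries as single reads. The authors mapped reads to the mouse genome (NCBI build), assigned uniquely mapped reads to known transcripts in Genomatix software and deposited RPKM values; program versions for these steps are not given in the sources used here. RPKM compares cultures only relative to their mapped reads. Genotypes came from the sample labels, 0 value columns remained without a sample, and replicate numbers are not shared between genotypes. The series describes the cultures as independent; whether they came from separate animals is not stated, so p-values measure the spread between these cultures.

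Of 168326 rows, the 28890 RefSeq rows were used, and 16865 with a mean of at least 0.5 RPKM were compared with limma 3.58.1 (R 4.3.3, empirical Bayes with intensity trend) on log2(RPKM + 1), where fold changes of low genes are understated. P-values were adjusted by Benjamini-Hochberg over all 16865 with a threshold of 0.05. Exact permutation tests were two-sided on RPKM. The design foresaw counts or RPKM, and RPKM was found. Other steps used matplotlib 3.10.9, scipy 1.17.1, pandas 2.3.3 and numpy 2.4.6 in Python 3.11.15, and the comparison was tested on simulated data.

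Reads behind RPKM were recovered from transcript lengths, with 93.4% to 93.5% of Ensembl values within 0.05 reads of a whole number. For RefSeq rows the shortest length from 100 to 30000 bases that gave whole reads in all cultures (within 0.02 reads plus rounding, at most 0.08) was taken, so that whole reads follow from the search. Such a length was kept for 16861 of 16865 transcripts. Fabp4 and Scd1 were dropped because they would have taken over 10% of the reads. The length was within 1.5-fold of a GENCODE length for 88.0% of 16525 transcripts and for 35 of 45 members, so that read numbers of the other 10 members (Gclm, Glrx5, Gstm1, Gstz1, Mgst3, Prdx1, Prdx2, Prdx5, Sod2 and Sod3) are less certain. A floor of 3 reads for a transcript of 2 kilobases corresponded to 0.0846 to 0.100 RPKM and covers counting error only. Promoter windows are from RefSeq on GRCm38.p6 (32851 for 27025 genes). Gene starts are from RefSeq gene coordinates, and the other starts of Mt1 and Mt2 from GENCODE M21.

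The members and lists were chosen with earlier results of these data known. Every member is named. Values of each culture are given for members with an unadjusted p under 0.05 or without overlap, the 3 most abundant, the 3 with the widest range above 5 RPKM, Gclc, Gclm, Nfe2l2, Keap1 and Ucp1, and for related genes with an unadjusted p under 0.05. Values per culture of Gpx3, Mtf1, Slc30a1, Hmox1, Cat and Cybb were added after they were seen.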

Additional observations from a re-analysis of the deposited data

How the results depend on the processing

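The count of members past an adjusted p of 0.05 was 0 in limma under every alternative run, and the median log2 fold change of the members stayed between -0.06 and -0.01. Over all transcripts the adjusted count rose from 0 to 22 without a minimum abundance, none of them a member. Leaving out 1 culture moved the members with an unadjusted p under 0.05 from 3 to between 0 and 8, and those without overlap from 3 to between 3 and 20. These are counts of 45 members with 2 cultures in 1 genotype. The highest counts, 8 and 20, came without WT culture 10. The shares over all transcripts then also rose, to 10.4% and 32.8%, but stayed below those of the members. Leaving out WT culture 10 and Ucp1-KO culture 13 together, chosen after seeing the data, gave 10 and 28 of 45 members, compared with 13.6% and 49.4% of all transcripts. Without a minimum abundance, the unadjusted p was 0.0101 for Gpx4, 0.0861 for Mt1 and 0.0691 for Gstt1. Limma-voom on recovered reads gave 1 member (Mt1) with an unadjusted p under 0.05, compared with 5.32% of all transcripts, and median-of-ratios scaling gave 5 members without overlap (Gpx4, Gsr, Gsta3, Gstt1 and Mt1), where 11.8% of all transcripts did not overlap. Under this scaling Mt2 (0.0459) replaced Gstm1 (0.0678) among members with an unadjusted p under 0.05. All 45 members kept their direction under every change of constant, minimum (43 tested at 5 RPKM), transcript set, scaling, trend or test.

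Leaving out 1 culture reversed 14 members with small differences. Their log2 fold changes then ranged from -0.0616 to 0.21 for Glrx3, from -0.0481 to 0.12 for Glrx5, from -0.0244 to 0.25 for Gpx1, from -0.0228 to 0.10 for Gss, from -0.12 to 0.48 for Gsta4, from -0.16 to 0.0483 for Gstm5, from -0.0028 to 0.22 for Gstz1, from -0.0915 to 0.0387 for Prdx5, from -0.0919 to 0.0112 for Sod2, from -0.32 to 0.0249 for Srxn1, from -0.14 to 0.0336 for Txn2, from -0.14 to 0.10 for Txnip, from -0.11 to 0.21 for Txnrd1 and from -0.0628 to 0.10 for Txnrd2. Of the 31 members that kept their direction, 28 moved by over 1.5 times in at least 1 of these fits, all but Gpx4, Gstm1 and Gstp1. With cultures 10 and 13 both left out, Txn1 (-0.0111), Txnrd1 (-0.0295), Txnrd2 (-0.0079) and Gss (-0.014) were reversed. The cause was not tested. No paired analysis was run, because the labels pair no cultures and the genotypes share 0 replicate numbers. Over all transcripts, shared extreme positions were most frequent for cultures 10 and 13 (49.4%), 12 and 15 (33.4%) and 11 and 14 (24.8%). Whether such cultures were handled together is not stated in the sources used here and was not tested. Fewest reads among members lay behind Gsta3 and Nqo1, with under 100 in every culture.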

Other observations

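Among genes that release hydrogen peroxide, Ero1l, the endoplasmic reticulum oxidase that is induced by low oxygen, measured 50.4, 143 and 158 RPKM in WT cultures 10, 11 and 12 and 21.8, 80.9 and 141 RPKM in Ucp1-KO cultures 13, 14 and 15. Cultures 10 and 13 were the lowest of their own genotype, as for Mt1, Mt2 and Hmox1, but also as for 5720 of all 16865 transcripts. Ero1l did not pass the test between genotypes (log2 fold change -0.72 ± 0.72 (SE), adjusted p 0.902, limma). Chac1, a glutathione-degrading enzyme of the integrated stress response, had its lowest values in the same cultures, with 4.14, 11.9 and 9.85 RPKM in WT and 3.31, 5.62 and 10.9 RPKM in Ucp1-KO cells. Slc39a14, a zinc and iron importer, measured 5.10, 10.9 and 7.69 RPKM in WT and 4.51, 5.81 and 5.52 RPKM in Ucp1-KO cells, which is the order of Mt1 in the WT cultures. These 3 genes were picked after their values were seen.

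Gpx2, Gpx5, Gpx6, Gsta2, Aldh3a1 and Mt4 were listed at 0 in all 6 cultures, and Mt3, Gsta1 and Gstm3 in 5 of 6. Nox1, Duox1, Duox2 and Ero1lb had means under 0.5 RPKM.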
